A study of Homo sapiens with 6 samples.

Results

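Transcript levels of 10 genes that carry iron into a cell, store it, let it out or sense it were read in MDA-MB-453 cells given 25(OH)D. They were TFRC, STEAP3 and SLC11A2 for uptake, FTH1, FTL and NCOA4 for storage and its release, SLC40A1 and HAMP for export, and IREB2 and ACO1 for sensing. Members were chosen by gene symbol, and all 10 were found among the 33451 genes of the count table. MDA-MB-453 is a long-established line of human breast cancer cells. The control group (CG) received solvent and the experimental group (EG) received 100 nM 25(OH)D, the circulating form of vitamin D, and both were collected at day 5 as stranded mRNA libraries, with 3 libraries per group. All 6 libraries came from this 1 cell line, and the labels do not say whether the 3 libraries of a group were separate cultures, so p-values measure the spread between these libraries.

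Iron enters most cells bound to transferrin, which the transferrin receptor carries into endosomes, where a reductase frees it and a transporter moves it to the cytosol. Ferritin cages made of heavy and light chains hold the surplus, and ferroportin, the product of SLC40A1, is the known exporter of iron from animal cells. The iron regulatory proteins bind hairpins called iron-responsive elements in messages of this system, where a hairpin in the 5′ untranslated region holds back translation when iron is low and hairpins in the 3′ untranslated region of TFRC protect the message from decay.

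The hairpins are printed here because they are a feature that TFRC, FTH1, FTL and SLC40A1 share. Messages of this system are known to carry them, so the matches in these genes are no independent finding. They were found in the GENCODE 29 transcripts (GRCh38) by a fixed pattern of 27 bases, read 5′ to 3′: 5 stem bases, a C left unpaired, 5 stem bases, the loop CAGTGN, and the answering strand of the stem. All 5 upper pairs and at least 3 of the 5 lower pairs were required, and G-T pairs were allowed. Capitals mark the loop, and T is written for U.
TFRC, 3′ untranslated region, chr3:196050464-196050490, minus strand: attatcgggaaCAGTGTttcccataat
TFRC, 3′ untranslated region, chr3:196050511-196050537, minus strand: tgtatcggagaCAGTGAtctccatatg
TFRC, 3′ untranslated region, chr3:196050576-196050602, minus strand: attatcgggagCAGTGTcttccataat
TFRC, 3′ untranslated region, chr3:196050980-196051006, minus strand: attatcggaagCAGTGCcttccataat
FTH1, 5′ untranslated region, chr11:61967575-61967601, minus strand: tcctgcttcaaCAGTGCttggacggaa
FTL, 5′ untranslated region, chr19:48965336-48965362, plus strand: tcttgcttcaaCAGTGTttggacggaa
SLC40A1, 5′ untranslated region, chr2:189580662-189580688, minus strand: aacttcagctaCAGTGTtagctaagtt

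The 4 TFRC hairpins lay in 3 of its 4 coding transcripts, the FTH1 hairpin in 7 of 8, the FTL hairpin in its 1 coding transcript and the SLC40A1 hairpin in 1 of 5. Over all coding genes, these 4 included, the pattern had a match in the 5′ untranslated region of 12 of 18520 (0.0648%) and in the 3′ untranslated region of 32 of 19002 (0.168%). The other 6 genes held no match to these letters in their untranslated regions. The pattern says nothing of hairpins of another shape, in these 6 genes or in the 4 with matches. A match is a description of the sequence, and no reading of protein binding was made.

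The libraries held between 33268860 and 40928176 counts each. Mitochondrial genes took 7.85 to 7.99% of counts in the CG and 8.89 to 9.24% in the EG, a difference that runs with the groups and whose part in the results was not tested. Levels are given as CPM, counts per 1000000 of the library size multiplied by its TMM factor. These factors were 1.01 to 1.018 in the CG and 0.9802 to 0.9925 in the EG, so they also run with the groups. The luminal markers FOXA1, ERBB2, KRT8, KRT18 and EPCAM were all present, with a summed level of 3144 to 3236 CPM in the CG and 3431 to 3477 CPM in the EG. KRT8, at 1636 to 1693 CPM in the CG and 1825 to 1869 CPM in the EG, made up most of this sum, while FOXA1 was lower in the EG (111.9 to 120.2 CPM against 77.5 to 88.4 CPM), and the part of these shifts in the results was not tested. The fibroblast markers summed to 36.5 to 38.8 CPM in the CG and 32.0 to 34.6 CPM in the EG, nearly all of it COL1A1, while COL1A2 reached at most 16 counts and PDGFRB at most 4. Markers of the other cell types were near 0 in every library: PECAM1 reached at most 8 counts, PTPRC 6, CD3E 2, ALAS2 11, HBA1 26, ALB 22 and TF 17.

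Among the 10 genes, the exporter SLC40A1 fell, and TFRC, STEAP3, FTH1 and ACO1 rose by 1.09-fold (TFRC) to 1.38-fold (STEAP3). FTL, NCOA4, SLC11A2 and IREB2 did not pass the test, and HAMP was nearly unread. The test was edgeR's quasi-likelihood test over the 18183 genes with enough counts, called at a Benjamini-Hochberg adjusted p under 0.05, and 9 of the 10 genes entered it. The 5 calls stand beside a share of 33.8% called among all genes tested. Counted by direction, the 4 higher genes stand beside 17.3% of all genes called higher and the 1 lower gene beside 16.5% called lower. At the limits used in the study, an absolute log2 fold change over 1 with an unadjusted p under 0.05, which 6.65% of all genes passed, SLC40A1 was the 1 gene of the 9 to pass. The EG and CG libraries did not overlap for the same 5 genes, as they did not for 45.7% of all genes tested. The median log2 fold change of the 9 genes was 0.10 against -0.011 over all genes, and their median absolute change of 0.12 was smaller than the 0.23 of all genes. The shares and medians of all genes, here and below, were not matched to the iron genes for level.

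**Figure D1:**
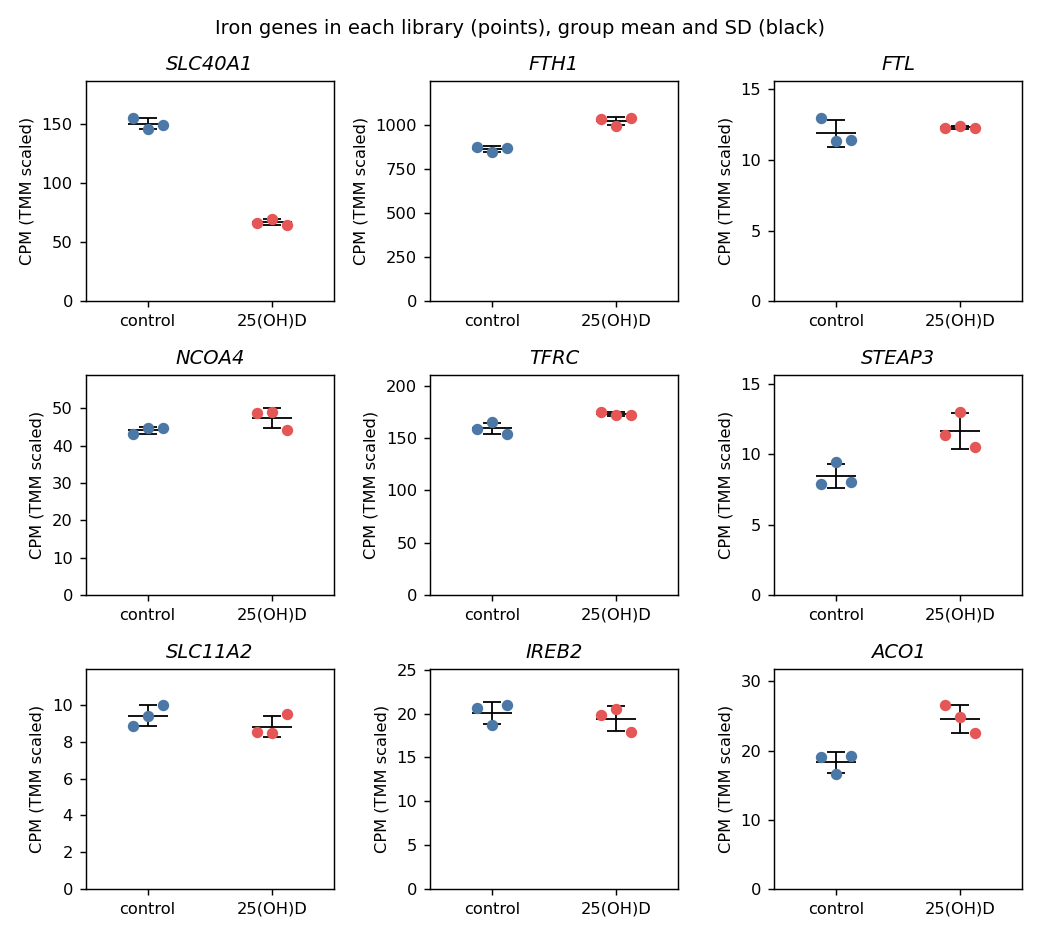
Level of the 9 tested genes in CPM (TMM scaled) on the vertical axis of each panel, with 1 point per library, control in blue and 25(OH)D in red, and the group mean and SD in black. SLC40A1 drops from 146–155 CPM to 64.3–69.4 CPM. The other 8 panels show smaller shifts, the largest in STEAP3 (1.38-fold) and ACO1 (1.35-fold).

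SLC40A1, the ferroportin gene, had the largest change of the 9. It lies on chromosome 2 from 189560579 to 189583758 (minus strand, GRCh38), with 12 merged exons that share no bases with another gene. Counts were 6455, 5508 and 5488 in the 3 CG libraries and 2328, 2669 and 2095 in the 3 EG libraries. Every EG library lay below every CG library by a wide margin. The mean level was 149.9 ± 4.76 CPM in the CG and 66.7 ± 2.59 CPM in the EG (SD, 3 libraries each). The fitted log2 fold change was -1.17 (SE 0.0467, 95% interval -1.27 to -1.07, adjusted p = 1.20e-10 by edgeR), or 2.25-fold lower. Of all genes tested, 5.38% had a larger absolute change. Across every alternative scaling, filter, tool and left-out library the log2 fold change stayed between -1.21 and -1.13. In bulk libraries such as these, fewer cells carrying a message and less message per cell cannot be told apart.

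HAMP encodes hepcidin, the liver hormone that binds ferroportin and sends it for degradation. It gave no counts in 5 of the 6 libraries and a count of 1 in EG replicate 2, so it was left out of the test. A count of 0 allows up to 3 counts, or 0.0720 to 0.0921 CPM across these libraries, and no difference between the groups was detectable at this depth. Ferroportin works with ferroxidases that oxidise the iron it releases. CP, the gene of ceruloplasmin, stood at 3.08 ± 0.366 CPM in the CG and 3.16 ± 0.273 CPM in the EG, which did not pass the test (log2 fold change 0.04, adjusted p = 0.891). HPS3 on the opposite strand shares 19.4% of the CP exon bases. HEPH, the membrane ferroxidase hephaestin, was too low to test, and HEPHL1 stood at 0.253 CPM in the CG and 0.284 CPM in the EG (adjusted p = 0.827).

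**Figure D2:**
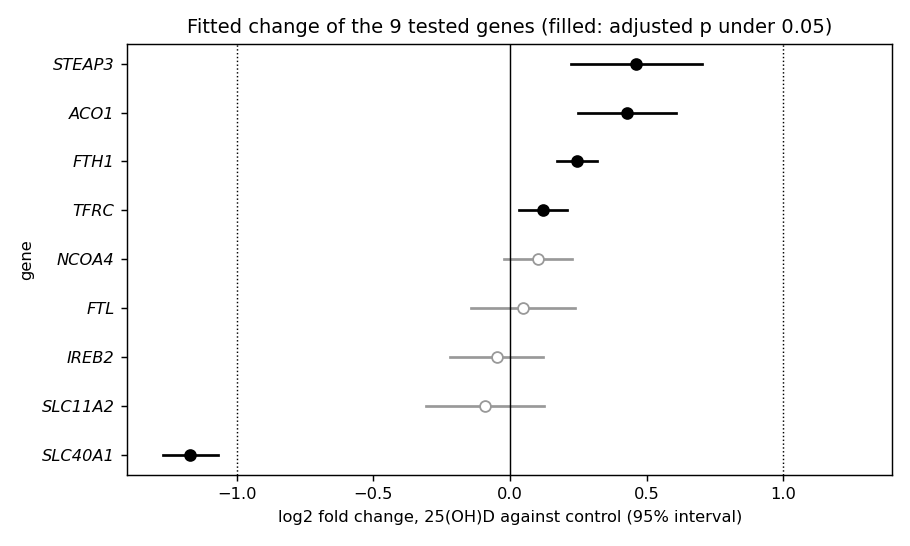
Fitted log2 fold change of EG against CG for the 9 tested genes on the horizontal axis, with bars for the 95% interval and filled points for adjusted p under 0.05. SLC40A1 lies alone at -1.17, and the 4 genes that rose lie between 0.12 and 0.46.

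In the storage group FTH1 rose slightly, while neither FTL nor NCOA4 passed the test. FTH1 encodes the ferritin heavy chain, which has the ferroxidase activity of the cage. The gene spans 61959718 to 61967660 on chromosome 11 (minus strand), in 4 merged exons. Its level was 873.8, 842.5 and 868.1 CPM in the CG and 1031, 992.2 and 1039 CPM in the EG. The groups did not overlap, and all 3 EG libraries were higher. The mean was 861.5 ± 16.6 CPM in the CG and 1021 ± 25.2 CPM in the EG (SD, 3 libraries each), and the gene rose by 0.24 on the log2 scale (SE 0.0336, 95% interval 0.17 to 0.32, adjusted p = 5.25e-05), which is 1.19-fold. A larger absolute change was seen in 46.8% of all genes tested.

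The FTH1 value carries a limit from its neighbour. The exons of BEST1, which encodes the chloride channel bestrophin-1 known from the retinal pigment epithelium, cover 1267 of the 2030 exon bases of FTH1 on the opposite strand, as the map of the merged exons shows. BEST1 had 23240, 21648 and 22269 counts in the CG and 26121, 26288 and 21425 in the EG, between 63.3 and 72.1% of the FTH1 count of the same library. Its fitted log2 fold change, 0.26 (adjusted p = 0.000456), was of the same size as that of FTH1. Across the table, genes of at least 200 bases were sought that lie wholly inside the exons of a gene with at least 6000 counts. Over the 176 such pairs on opposite strands, the inner gene had a median 0.536 of the outer gene's counts per base. Over the 66 pairs on the same strand the median was 0.526. The inner gene had at least 10 counts in 171 and 63 of these pairs. Shared bases on the opposite strand were thus counted much like those on the same strand, and reads of FTH1 and BEST1 cannot be told apart there. The whole BEST1 count was then taken away from FTH1, a choice made after seeing the data. This also removes BEST1 reads from outside the shared bases. Where reads were counted for both genes, it removes FTH1's own reads too, and the shared bases are 62.4% of the FTH1 exon bases. The remaining level was 263 to 316 CPM in the CG and 288 to 382 CPM in the EG. These ranges overlapped, the log2 fold change was 0.20, and the call was lost (adjusted p = 0.0901).

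**Figure D3:**
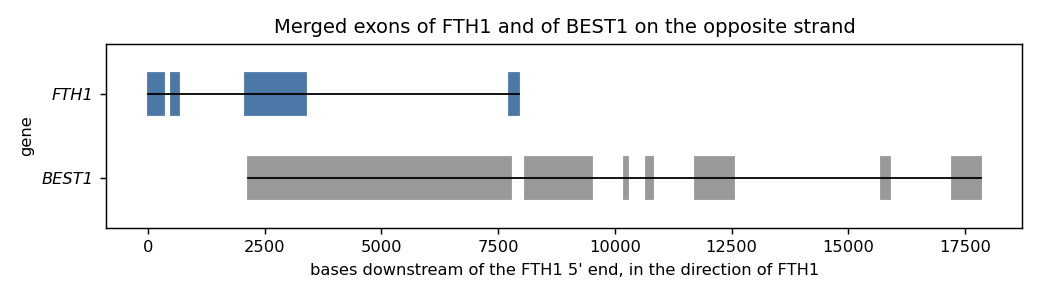
Merged exons (boxes) and extent (lines) of FTH1 in blue and of BEST1 in grey on the opposite strand, to scale, with bases from the FTH1 5′ end on the horizontal axis. BEST1 exons cover 1267 of the 2030 FTH1 exon bases, within the last 2 FTH1 exons.

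FTL encodes the ferritin light chain, which helps the iron core to form. It lies on chromosome 19 from 48965301 to 48966878 (plus strand), also in 4 merged exons. Its level was 12.99, 11.32 and 11.38 CPM in the CG and 12.29, 12.41 and 12.24 CPM in the EG, and the EG values fell inside the CG range. The log2 fold change was 0.05 (SE 0.0889, 95% interval -0.14 to 0.24, adjusted p = 0.720 by edgeR). Both ferritin genes have many processed pseudogenes, and how reads matching several places were counted is not given in the sources used here. Of all 100-base stretches of the mature transcript, 48.4% in FTH1 and 34.0% in FTL came within 2 mismatches of a ferritin pseudogene. The 18 FTH1 pseudogene rows held 0.323 to 0.465% of the FTH1 count, and the 6 FTL rows held 2.32 to 7.27% of the FTL count. Adding these counts to the parent genes gave log2 fold changes of 0.24 for FTH1 and 0.07 for FTL, and neither call moved.

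NCOA4 is the cargo receptor that delivers ferritin to lysosomes, which frees the stored iron. On chromosome 10 it runs from 46005088 to 46030714 (minus strand). Its level was 42.96, 44.66 and 44.62 CPM in the CG and 48.79, 49.08 and 44.13 CPM in the EG. EG replicates 1 and 2 lay above all CG libraries and EG replicate 3 lay among them. The log2 fold change of 0.10 (SE 0.0585, 95% interval -0.023 to 0.23) did not pass the test (adjusted p = 0.201), and it did pass without EG replicate 3 (0.16, adjusted p = 0.0479). HERC2, the ubiquitin ligase known to target NCOA4 when iron is plentiful, stood at 219.5 CPM in the CG and 232.3 CPM in the EG (log2 fold change 0.08, adjusted p = 0.162). TAX1BP1, an autophagy receptor that acts with NCOA4 in ferritin turnover, rose from 153.4 ± 3.15 to 193.2 ± 3.14 CPM (log2 fold change 0.33, SE 0.0387, adjusted p = 1.06e-05). PCBP1, a chaperone that hands iron to ferritin, fell from 119.0 ± 2.79 to 91.6 ± 1.72 CPM (log2 fold change -0.38, SE 0.0427, adjusted p = 8.13e-06), although 52.2% of its exon bases are shared with PCBP1-AS1 on the opposite strand. Its relative PCBP2 shares 18.8% of its bases with MAP3K12 on the opposite strand and 13.8% with RP11-793H13.8 on the same strand, a row with 9161 to 11682 counts against 7829 to 10115 for PCBP2. As deposited, PCBP2 fell by 0.12 on the log2 scale (adjusted p = 0.0456).

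In the uptake group TFRC and STEAP3 rose and SLC11A2 did not pass the test. TFRC, the transferrin receptor, lies on chromosome 3 from 196027183 to 196082189 (minus strand) in 21 merged exons. Its level was 159.0, 165.0 and 154.0 CPM in the CG and 175.4, 172.0 and 172.4 CPM in the EG. The lowest EG library was above the highest CG library, by a small margin. The log2 fold change was 0.12 (SE 0.0404, 95% interval 0.034 to 0.21, adjusted p = 0.0328), or 1.09-fold, and 70.3% of all genes had a larger absolute change. This call was fragile. It was lost with upper-quartile scaling (0.08, adjusted p = 0.161) and with library sizes alone (0.08, adjusted p = 0.170), and with limma on log2(RPKM + 1) (0.07, adjusted p = 0.182) and on log2(RPKM + 0.1) (0.08, adjusted p = 0.186). It was also lost without CG replicate 1 (0.13, adjusted p = 0.0650), CG replicate 3 (0.10, adjusted p = 0.0947), EG replicate 1 (0.12, adjusted p = 0.0853) or EG replicate 2 (0.13, adjusted p = 0.0640). The direction was upward in all of these.

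STEAP3 is the endosomal ferrireductase of the transferrin cycle. It lies on chromosome 2 from 119223831 to 119265652 (plus strand). Counts were 328, 358 and 296 in the CG and 400, 501 and 343 in the EG, that is 7.88, 9.46 and 8.04 CPM against 11.38, 13.03 and 10.53 CPM. All 3 EG libraries lay above the CG libraries. The log2 fold change was 0.46 (SE 0.111, 95% interval 0.22 to 0.70, adjusted p = 0.00484), the largest rise of the 9 genes at 1.38-fold. Of all genes tested, 23.7% had a larger absolute change. The antisense gene STEAP3-AS1, with 110 to 177 counts over 3218 exon bases, shares 500 of the 4562 STEAP3 exon bases. With its whole count taken away, again chosen after seeing the data, the log2 fold change was 0.67 (adjusted p = 0.000529). This also removes STEAP3-AS1 reads from outside the shared bases, so 0.67 is no corrected value of the rise.

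SLC11A2 encodes DMT1, the transporter that moves ferrous iron out of the endosome. On chromosome 12 it runs from 50979401 to 51028566 (minus strand). Its level was 8.862, 9.412 and 9.995 CPM in the CG and 8.53, 8.48 and 9.51 CPM in the EG, and the groups overlapped. The log2 fold change was -0.09 (SE 0.1004, 95% interval -0.31 to 0.12, adjusted p = 0.526).

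Larger changes than those of TFRC and STEAP3 were seen in other genes of uptake. HFE, which binds the transferrin receptor and lowers its grip on transferrin, was at 18.2, 16.3 and 17.6 CPM in the CG and 29.7, 37.2 and 30.7 CPM in the EG. Its log2 fold change was 0.91 (SE 0.0882, adjusted p = 1.80e-06). CYBRD1, a plasma membrane ferrireductase known from the gut, was at 18.25, 20.17 and 20.04 CPM in the CG and 4.52, 5.75 and 5.46 CPM in the EG, a log2 fold change of -1.89 (SE 0.104, adjusted p = 3.95e-09). STEAP4, a relative of STEAP3, had 10, 8 and 4 counts in the CG and 44, 50 and 48 in the EG, and it was named after its values were seen (log2 fold change 2.81, SE 0.387, adjusted p = 5.60e-05). The groups did not overlap for any of these. The transporter SLC39A8 rose from 24.5 ± 2.10 to 34.8 ± 0.408 CPM (log2 fold change 0.51, adjusted p = 5.52e-05), while its relative SLC39A14, which also carries iron not bound to transferrin, fell from 5.03 ± 0.665 to 2.69 ± 0.169 CPM (-0.90, adjusted p = 0.000415). The second transferrin receptor, TFR2, was low, at 2.64 CPM in the CG and 2.06 CPM in the EG, and did not pass the test (adjusted p = 0.177). SNX3, listed with the genes of the transferrin cycle and named after its values were seen, fell from 180.2 ± 9.43 to 150.6 ± 2.465 CPM. Its log2 fold change was -0.26 (SE 0.0447, adjusted p = 0.000412), and the groups did not overlap.

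Of the 2 iron sensors ACO1 rose and IREB2 did not pass the test. ACO1 encodes IRP1, which is a cytosolic aconitase when it holds an iron-sulfur cluster and binds the hairpins when it does not. The gene is on chromosome 9 from 32384603 to 32454769 (plus strand). Its level was 19.12, 16.55 and 19.20 CPM in the CG and 26.54, 24.81 and 22.49 CPM in the EG, with every EG library above the CG. The log2 fold change was 0.43 (SE 0.0841, 95% interval 0.25 to 0.61, adjusted p = 0.00113), which is 1.35-fold. A larger absolute change was seen in 26.3% of all genes tested.

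IREB2 encodes IRP2, which is controlled mainly through its stability. It lies on chromosome 15 from 78437431 to 78501456 (plus strand). Its level was 20.68, 18.67 and 20.94 CPM in the CG and 19.86, 20.55 and 17.86 CPM in the EG, and the groups overlapped (log2 fold change -0.05, SE 0.0796, 95% interval -0.22 to 0.12, adjusted p = 0.688). The direction turned without EG replicate 3 (0.019, adjusted p = 0.895). FBXL5, the iron-sensing F-box protein that marks IRP2 for degradation, was at 36.0, 35.1 and 33.3 CPM in the CG and 45.1, 46.5 and 38.5 CPM in the EG. It rose by a log2 fold change of 0.32 (SE 0.0725, adjusted p = 0.00347). SKP1, a partner of FBXL5 in its ubiquitin ligase, rose by 0.14 (adjusted p = 0.0215), and the scaffold CUL1 had a log2 fold change of -0.06 (adjusted p = 0.476).

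Levels were compared between genes only per length, as deposited RPKM. In the CG the order was FTH1 at 430.5 ± 7.91, SLC40A1 at 35.1 ± 1.16, TFRC at 20.5 ± 0.786, FTL at 13.8 ± 1.13, NCOA4 at 10.96 ± 0.220, ACO1 at 2.46 ± 0.197, IREB2 at 1.89 ± 0.112, STEAP3 at 1.88 ± 0.198 and SLC11A2 at 0.973 ± 0.0545 RPKM (SD, n = 3). IREB2 and STEAP3 did not differ beyond their spread, and the other neighbours did not overlap. In the EG SLC40A1, at 15.2 ± 0.690 RPKM, lay below TFRC, at 21.6 ± 0.205, and its 14.5 to 15.9 RPKM came close to the 13.7 to 14.0 RPKM of FTL. STEAP3, at 2.51 ± 0.292 RPKM, lay above IREB2, at 1.77 ± 0.137, in the EG. RPKM divides by the merged exon length, which is 878 bases for FTL and 10806 for IREB2, and genes with long unused exons read low on this scale. The place of FTH1 rests on bases shared with BEST1, and that of FTL on reads it may share with its pseudogenes.

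**Figure D4:**
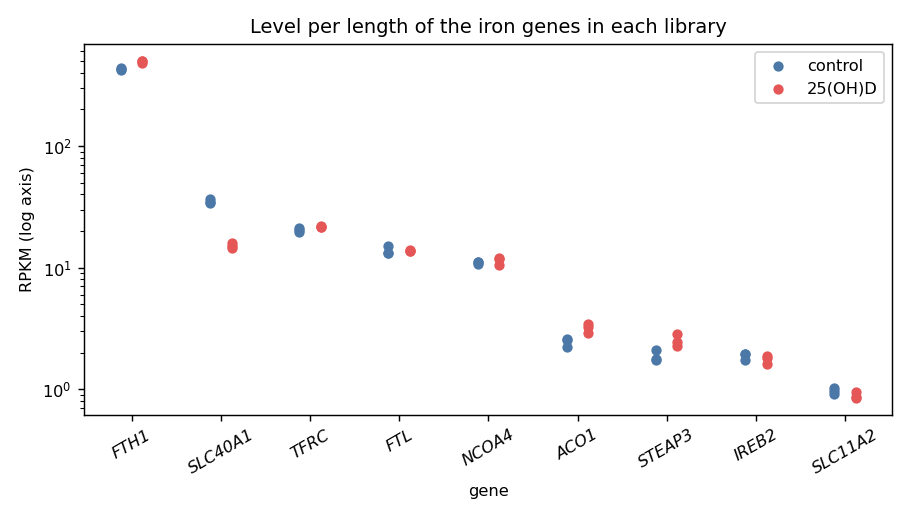
RPKM of the 9 tested genes in each library on a log axis, in the order of their mean level over both groups, with CG in blue and EG in red. SLC40A1 is the second highest in the CG and falls below TFRC in the EG, while FTH1 lies far above all others in both groups.

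The ratio of FTH1 to FTL within a library, per length, was 29.1, 32.2 and 33.0 in the CG and 36.3, 34.6 and 36.7 in the EG. All EG ratios were higher, and the log2 ratio rose from 4.97 ± 0.0964 to 5.16 ± 0.0456, a difference of 0.19 (2-sided exact permutation p = 0.1, the smallest that 3 against 3 can give). The ratio of TFRC to FTH1 was 0.0469, 0.0504 and 0.0457 in the CG and 0.0438, 0.0446 and 0.0427 in the EG. All EG ratios were lower, with a log2 difference of -0.12 (exact permutation p = 0.1). The level of FTL behind the first ratio is uncertain, since how reads shared with its pseudogenes were counted is not known here. Taking the BEST1 count from FTH1 left 27.9 to 36.7% of the FTH1 count. The rest was still divided by all 2030 FTH1 exon bases, 62.4% of which are shared with BEST1. The size of the ratios below therefore cannot be set against that of the ratios above, and only the groups are compared. The ratios of FTH1 to FTL were 10.5, 10.3 and 10.0 in the CG and 10.1, 10.8 and 13.5 in the EG, and the groups overlapped. The log2 differences of the FTH1 to FTL and TFRC to FTH1 ratios were then 0.15 (exact permutation p = 0.3) and -0.08 (exact permutation p = 0.6).

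Other genes of iron handling were read from 6 lists, of which 70 genes were tested. Of these, 19 rose (27.1%, beside 17.3% of all genes), 11 fell (15.7%, beside 16.5%) and 40 did not pass the test. The median log2 fold change was 0.06 and the median absolute change 0.18, beside 0.23 for all genes. With upper-quartile factors or library sizes alone 14 rose and 12 fell. The same shares of all genes, 17.3% higher and 16.5% lower, stand beside each list, and lists of 7 to 24 genes give coarse shares. The transferrin cycle and ferrireductase list had 2 higher and 2 lower of 7 (28.6% each), and the carriers, chaperones and export partners had 2 higher (20%) and 4 lower (40%) of 10. The list of regulators of hepcidin, of the iron regulatory proteins and of ferritin turnover had 4 of 10 higher (40%, beside 17.3%), and the other 6 did not pass. The 4 were FBXL5, SKP1, TAX1BP1 and EPAS1, the last of which encodes the hypoxia-inducible factor HIF-2α and was named after its values were seen (log2 fold change 0.30, adjusted p = 0.000817).

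Of the 24 genes that build iron-sulfur clusters, which aconitases such as IRP1 carry, 5 rose (20.8%, beside 17.3% of all genes), 2 fell (8.33%, beside 16.5%) and 17 did not pass. CIAO3, listed under its older symbol NARFL and a member of the machinery that places clusters in cytosolic proteins, rose from 22.2 ± 1.51 to 35.5 ± 1.44 CPM (log2 fold change 0.68, adjusted p = 2.70e-06), with 16.6% of its exon bases shared with HAGHL on the opposite strand. MMS19, of the same machinery, fell from 30.8 ± 1.35 to 26.1 ± 0.883 CPM (-0.24, adjusted p = 0.00991), a call lost without CG replicate 1 (-0.20, adjusted p = 0.0547). The other 22 lay between -0.29 and 0.52.

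Haem synthesis, which uses iron in its last step, had 2 higher and 1 lower of 10 (20% and 10%), near the 17.3% and 16.5% of all genes. UROD, uroporphyrinogen decarboxylase, rose from 38.2 ± 3.20 to 72.0 ± 2.58 CPM (log2 fold change 0.92, adjusted p = 5.22e-08). FECH, ferrochelatase, which puts iron into haem, fell from 37.6 ± 4.03 to 31.6 ± 1.89 CPM (-0.25, adjusted p = 0.0241). The FECH call was lost without CG replicate 1 (adjusted p = 0.0568), CG replicate 2 (-0.17, adjusted p = 0.152), EG replicate 1 (adjusted p = 0.113) or EG replicate 2 (adjusted p = 0.0620).

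In haem breakdown and transport 4 of 9 rose (44.4%, beside 17.3% of all genes) and 2 fell (22.2%, beside 16.5%). BLVRB, biliverdin reductase B, rose from 65.3 ± 0.688 to 99.4 ± 2.67 CPM (log2 fold change 0.61, adjusted p = 1.16e-07), and SLC48A1, which carries haem across endosomal and lysosomal membranes, fell from 28.3 ± 1.10 to 22.9 ± 1.48 CPM (-0.30, adjusted p = 0.00366). HMOX1, the inducible haem oxygenase that frees iron from haem, stood at 2.65 ± 0.583 CPM in the CG and 2.39 ± 0.381 CPM in the EG (adjusted p = 0.633).

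**Figure D5:**
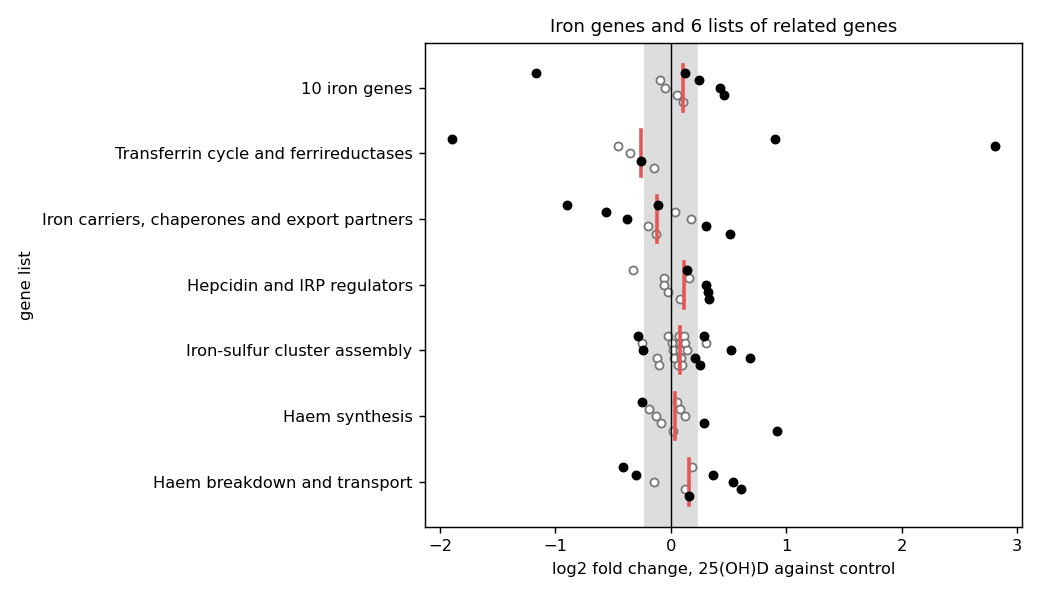
Fitted log2 fold change (EG against CG) of each tested gene among the 10 iron genes and in the 6 lists, filled where adjusted p was under 0.05. Red bars mark the medians, and the grey band runs from the lower to the upper quartile of the log2 fold changes of all genes tested. The medians lie between -0.26 and 0.16, and the points farthest from 0 are STEAP4 at 2.81, CYBRD1 at -1.89 and SLC40A1 at -1.17.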

How the data were processed

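mRNA of 3 CG and 3 EG libraries of MDA-MB-453 cells was measured by stranded, paired-end sequencing. The authors deposited raw counts per gene (whole reads) and RPKM values (reads per kilobase of merged exons, scaled to library size) side by side. The RPKM values were recomputed from the deposited counts and lengths with a largest relative difference of 2.23e-13. The submitters' processing notes name Trimmomatic 0.36, featureCounts, Subread 1.5.1, edgeR 3.12.1 and GRCh38. The aligner, the annotation release and the strand and multi-mapping settings of the counting are not given in the sources used here. The exons of 8 of the 10 genes were identical to GENCODE 29, as were 66 of 70 for SLC11A2 and 6 of 7 for HAMP.

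Counts of all genes were fitted without covariates with edgeR 4.0.16 in R 4.3.3 (TMM factors, filterByExpr by group with a minimum count of 10, quasi-likelihood test). The p-values were adjusted by the Benjamini-Hochberg method over the 18183 genes tested, and the biological coefficient of variation was 0.0788. CPM were scaled by TMM, and intervals are 95%. Ratios of RPKM were compared by 2-sided exact permutation tests. The script was tested on simulated data. No 2 libraries of a group agreed within sampling noise (chi-square per gene 4.01 to 12.1). Counting error sets a floor of 3 counts per library, 0.0720 to 0.0921 CPM at these depths.

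The 10 genes and the 6 lists were chosen with earlier results of these data known. All 10 genes are named. In each list the higher and the lower called gene with the smallest p is named, as are known partners of a gene described beside them. Genes of the lists with no row in the table (4 of 83) were not analysed here. Alternatives were DESeq2's size factors (DESeq2 1.42.0) and its own test, upper-quartile factors, library sizes alone, no filter, limma 3.58.1 on log2(RPKM + 1) and log2(RPKM + 0.1), the replicate number as a block, leaving out each library, and adding pseudogene counts. Taking BEST1 from FTH1 and STEAP3-AS1 from STEAP3 was added after seeing the data. A further luminal marker of the list is not reported here.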

Additional observations from a re-analysis of the deposited data

How the results depend on the processing

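SLC40A1, ACO1 and STEAP3 kept their direction and call under every alternative, as did FTH1 except with BEST1 taken away. That subtraction also removes FTH1's own reads where reads were counted for both genes, so the lost call does not decide whether FTH1 rose. SLC40A1 was the 1 lower gene each time. The number of the 10 genes called higher ran from 3 to 5, because TFRC was lost in 8 settings, FTH1 with BEST1 taken away, and NCOA4 was gained without EG replicate 3. Of 284 single-gene values under alternatives, 266 kept direction and call, 16 lost the call, 1 gained it and 1 turned, which was IREB2 without EG replicate 3 (from -0.093 to 0.019 over the left-out libraries). FECH lost its call without 4 of the 6 libraries in turn (log2 fold change -0.32 to -0.17) and under 2 of 8 other settings. Over the 6 lists, leaving out each library gave 15 to 17 genes higher and 7 to 11 lower, against 19 and 11 with all. Over all genes it gave 2742 to 3031 higher and 2349 to 2666 lower, against 3138 and 3004. The lists had 7 lower without EG replicate 1 or 2 and 11 without EG replicate 3. All genes had 2479 lower without EG replicate 1, 2382 without EG replicate 2 and 2666 without EG replicate 3. The lists thus moved with the whole table, and the cause was not tested. With limma on log2(RPKM + 1) 12 were higher, with limma on log2(RPKM + 0.1) 13, and with upper-quartile factors or library sizes alone 14; the cause was not tested. The FTH1 to FTL difference stayed between 0.14 and 0.23 and the TFRC to FTH1 difference between -0.15 and -0.082 over the left-out libraries, and 3 against 3 cannot reach a p under 0.05. The replicate numbers did not pair the samples (correlations of same-numbered deviations -0.072, -0.046 and -0.012). With the replicate block, 4 of the 10 genes were higher and 1 lower, as without it, SLC40A1 stood at -1.17 (adjusted p = 7.24e-09), the lists gave 19 and 11, and the calls over all genes went from 3138 higher and 3004 lower to 3057 and 2896. The balance over all genes turned with upper-quartile factors (2705 and 3613), library sizes alone (2689 and 3667) and limma (2391 and 3167, or 2408 and 3169 with the smaller offset). Depth limits HAMP, HEPH and other genes near the floor.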
